A study of Mus musculus with 22 samples.

Results

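Gene expression in the brain of control mice was compared between embryonic day 15 (E15) and postnatal day 1 (P1). The members of the comparison are the control channels of all 22 two-colour arrays of the series, that is, on each array the dye that did not carry knockout RNA. They were averaged to 1 value per animal, which gave 6 E15 control animals and 4 P1 control animals, 10 animals in all. At P1 the labels give only a replicate number, and arrays of the same number were taken to hold the same animal. The series set mice labelled knockout for Agtr2, the gene of the type 2 receptor for angiotensin II, against these controls, and the knockout channels of the same arrays hold another 12 replicates. All groups are whole mouse brain. The controls are labelled only as control, and their strain, genotype, sex and litter, and the construction of the knockout, are not given in the labels used here. RNA was taken from frozen slices of whole brain, treated with DNase and amplified linearly before labelling, so each value is an average over all cells of the slices. In such bulk samples fewer cells of a type and less RNA per cell cannot be told apart. Each E15 control was read on 2 or 3 arrays and each P1 control on 2, with both dyes in every animal. Animals of the 2 ages are different animals, and the p-values measure the spread between these 10 samples.

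At E15 much of the mouse brain is still being built: radial glia line the ventricles and divide, intermediate progenitors give rise to neurons, and newborn neurons migrate outward. Around birth most of the forebrain's neurons have been made, axons and synapses are forming, astrocytes multiply and mature, and the first cells of the oligodendrocyte lineage prepare to form myelin. Vessels grow into the tissue throughout this period, and the red cells within them change from embryonic to adult haemoglobins.

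Of 41174 probes, those with spots marked as outliers by the scanner software on 2 or more P1 arrays, 3101 in number, were left out, and 23886 features were tested, 18688 of them genes with a symbol. Values are normalised log2 intensities, and a difference is P1 minus E15 on that scale with its standard error (SE). A feature was called when its adjusted p was at most 0.05 (limma, Benjamini-Hochberg over all features tested, n = 6 E15 and 4 P1 animals). The fit called 7926 features, or 33.2% of those tested. Of these, 2216 (9.28%) were higher and 5710 (23.9%) lower at P1. In 6059 features, 25.4%, the values of the 2 groups of animals did not overlap. A change of at least 2-fold together with the call was found for 232 features higher at P1 (0.971%) and 530 lower (2.22%). The median difference of all features was -0.10. It was -0.24 with the scanner's processed signals, so that differences near this size depend on the scaling.

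**Figure D1:**
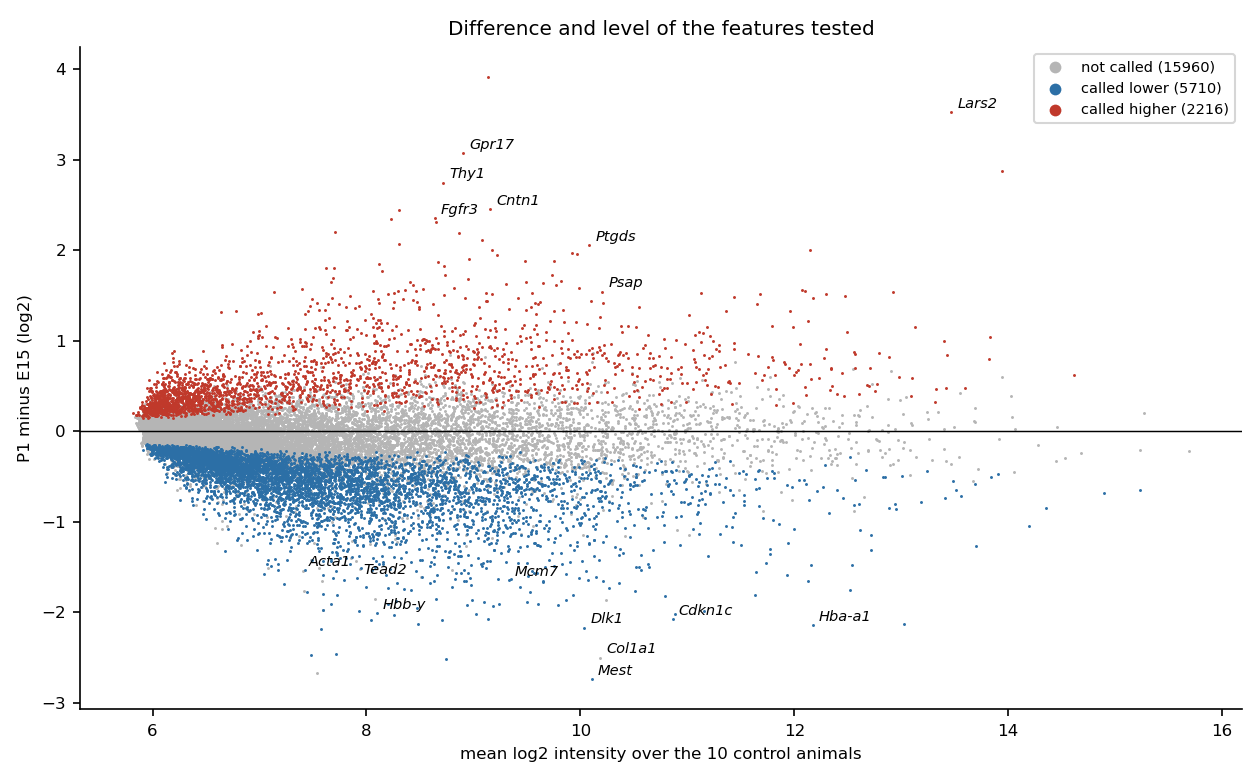
Difference between P1 and E15 control brain (y axis, log2) against the mean log2 intensity over the 10 control animals (x axis), 1 point per feature; grey points were not called, blue were called lower and red higher at P1. Thy1 (2.74), Gpr17 (3.07) and Lars2 (3.52) lie at the top and Mest (-2.74) at the bottom, and Col1a1 (-2.50) and Acta1 (-1.54) are grey despite the size of their differences.

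The plot of difference against level shows that calls were unevenly spread over signal. Among the 25% of features with the lowest levels, between 5.84 and 6.29, 8.55% were called lower and 8.07% higher, whereas in the 25% with the highest levels 29.8% were lower and 13.8% higher. Control channels had a median signal of 77.8 to 120.8 units at E15 and 74.0 to 129.7 at P1, over a local background of 35 to 49 and 34 to 43. Between 69.5% and 89.8% of spots stood well clear of background at E15, and between 76.1% and 92.9% at P1. The scanner marked 52 to 381 outlier spots on each E15 array and 287 to 3343 on each P1 array. The probes left out for them were not a random sample: their unmarked spots had a median difference of 0.75, and 91.4% lay above 0, against -0.09 and 35.5% for the 33420 probes kept. With the outlier spots kept, 4076 features were higher and 5813 lower, so that 41.2% of calls were rises in place of 28.0%.

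All 8 P1 arrays were scanned on a single day with a later version of the scanner software, and the 14 E15 arrays on 3 other days with an earlier one. Age and scan day therefore cannot be told apart, and no day held both ages. With scan day as a random block, which lets days differ by chance, 466 features were called higher (1.95%) and 692 lower (2.90%). In that fit E15 controls 3, 4 and 6 entered once per scan day, over 3, 2 and 2 days. Values of 1 animal on different days thus counted as separate samples. For the gene groups below the count with the block is given after the main one. E15 control 1 correlated with the other E15 animals at 0.957 over all features, and the remaining 9 animals with those of their age at 0.974 to 0.993. That animal was rich in RNA of skeletal muscle, meninges and imprinted growth genes, as described with those genes. Where a gene was read by several probes, the probe with the highest mean signal was used. Of 792 genes called higher with 2 or more usable probes, 391 (49.4%) had all probes on the same side of 0, as had 1321 of 1972 genes called lower (67.0%). For most genes called here whose probes disagreed in sign, the values or range over probes are given. Probes of the same sign could still differ in size, and their values are given for some genes only.

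Genes of mitosis fell almost as a block. Of 47 members tested, 39 (83.0%) were lower at P1 and 1 was higher, with a median difference of -0.75. With scan day as a block 22 were lower and 1 higher, and leaving out any 1 animal left 38 or 39 lower. The mean of the list lay between 7.59 and 7.97 in the E15 animals and at 7.09, 6.93, 7.06 and 7.09 in the P1 animals. Mki67, the proliferation marker Ki-67, ran from 9.03 to 9.75 (median 9.48) at E15 and read 8.22, 8.00, 8.47 and 8.27 at P1. All 4 P1 animals lay below all 6 E15 animals, a 2.32-fold fall of 1.21 (SE 0.13, adjusted p = 0.000193). Cenpa, the histone H3 variant that marks centromeres, ran from 7.88 to 8.16 (median 8.02) at E15 and read 6.49, 6.4, 6.63 and 6.50 at P1. Its fall was 2.89-fold, -1.53 (SE 0.07, adjusted p = 3.49e-06), with P1 animals again below every E15 animal. Kif22, a chromosome-bound kinesin, fell by 1.47 (SE 0.13, adjusted p = 9.19e-05). Cdk1, the kinase that drives entry into mitosis, fell by 0.85 (SE 0.14, adjusted p = 0.00142), with its second probe at -0.02. Its partner cyclin Ccnb1 fell by 0.84 (SE 0.11, adjusted p = 0.00051). Top2a, the topoisomerase that untangles chromosomes, fell by 0.75 (SE 0.10, adjusted p = 0.000662). Nusap1, a spindle protein, went the other way at low signal, from 6.18 to 6.34 at E15 to 6.55, 6.88, 6.67 and 6.58 at P1, a rise of 0.43 (SE 0.07, adjusted p = 0.0017).

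DNA replication genes moved in the same direction, with 29 of 43 lower (67.4%), none higher and a median of -0.64. With scan day as a block 13 were lower and none higher, and without any 1 animal 24 to 32 were lower. The subunits of the MCM helicase, which unwinds DNA at origins, were prominent. Mcm7 ran from 9.62 to 10.15 (median 10.06) at E15 and read 8.32, 8.58, 8.03 and 8.44 at P1, a 3.12-fold fall of 1.64 (SE 0.13, adjusted p = 4.99e-05). Mcm2 ran from 8.23 to 8.88 (median 8.36) and read 7.06, 6.90, 7.04 and 7.13, a fall of 1.39 (SE 0.12, adjusted p = 8.18e-05). In both genes the ages were far apart relative to the spread within an age. Mcm3 fell by 1.5 (SE 0.18, adjusted p = 0.000284), Mcm5 by 1.06 (SE 0.13, adjusted p = 0.000285) and Mcm6 by 0.72 (SE 0.18, adjusted p = 0.0114). Pola1, the catalytic subunit of DNA polymerase alpha, fell by 0.81 (SE 0.11, adjusted p = 0.000632). Tyms, which makes thymidylate, fell by 0.94 (SE 0.19, adjusted p = 0.00372), although its 3 probes ran from -1.03 to 0.21. Pcna, the sliding clamp, had a difference of -0.46 (SE 0.22, adjusted p = 0.14) with overlapping groups, and passed only without E15 control 1 (-0.59, adjusted p = 0.0332). Mcm6 and Pola1 were named after their values were seen, for the sequences that follow.

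Promoters of replication genes are known for sites of the E2F factors, and those of mitotic genes for a cell cycle homology region (CHR) together with CCAAT boxes. The 150 bases before the start of transcription are shown for 3 members of each list, because their promoters hold these motifs and their RNA fell. Sequences are from RefSeq on build GRCm38.p6, 5′ to 3′ on the strand of the gene. In the first 3, capitals mark the E2F words TTTCCCGC or TTTGGCGC, and in the last 3 the CHR word TTTGAA and the word CCAAT, on either strand.
Mcm5, chr8:75109359-75109508, plus strand: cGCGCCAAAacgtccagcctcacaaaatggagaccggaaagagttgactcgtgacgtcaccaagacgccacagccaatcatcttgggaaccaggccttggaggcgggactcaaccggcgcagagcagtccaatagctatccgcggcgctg
Mcm6, chr1:128359706-128359855, minus strand: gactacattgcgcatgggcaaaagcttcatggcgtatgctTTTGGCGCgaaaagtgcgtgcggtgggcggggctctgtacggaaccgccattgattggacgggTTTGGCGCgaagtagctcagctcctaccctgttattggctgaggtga
Pola1, chrX:93632156-93632305, minus strand: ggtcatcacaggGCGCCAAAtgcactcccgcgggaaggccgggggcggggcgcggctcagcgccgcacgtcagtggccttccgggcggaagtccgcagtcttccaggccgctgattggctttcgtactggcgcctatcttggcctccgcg
Cdk1, chr10:69352913-69353062, minus strand: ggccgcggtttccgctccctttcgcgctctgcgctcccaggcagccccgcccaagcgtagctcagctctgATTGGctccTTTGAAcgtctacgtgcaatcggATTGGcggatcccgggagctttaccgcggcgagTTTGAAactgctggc
Mki67, chr7:135716380-135716529, minus strand: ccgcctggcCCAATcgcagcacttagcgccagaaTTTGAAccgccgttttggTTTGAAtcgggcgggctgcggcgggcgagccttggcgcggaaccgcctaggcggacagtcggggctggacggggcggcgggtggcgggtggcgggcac
Top2a, chr11:99024190-99024339, minus strand: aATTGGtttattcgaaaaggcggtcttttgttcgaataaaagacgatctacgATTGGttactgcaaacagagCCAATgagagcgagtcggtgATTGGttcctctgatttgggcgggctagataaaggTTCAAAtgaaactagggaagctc

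Within 250 bases before the start, an E2F word was found in 6 of 44 promoters of the DNA replication genes (13.6%), in none of 42 promoters of the mitosis genes, and in 1.89% of the 17239 promoters of all genes tested. The CHR word was found in 15 of 42 mitosis promoters (35.7%), 13.6% of replication promoters and 12.8% of all. CCAAT stood in 32 of 42 mitosis promoters (76.2%), 25 of 44 replication promoters (56.8%) and 34.8% of all. The cyclic AMP element TGACGTCA, searched for comparison, was in 2.38%, 2.27% and 2.15%. Matches to different motifs overlapped in none of the promoters of either list and in 0.104% of all. Genes called lower held the E2F word in 2.22% and genes called higher in 1.30% of promoters, and CCAAT in 36.6% and 30.2%. These are counts of letters in a window, over 36 of the 43 replication genes and 40 of the 47 mitosis genes.

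The kinases, cyclins and inhibitors of G1, the phase in which a cell commits to another division, also fell. Of 21 tested, 13 were lower and none higher, with a median of -0.45, and 3 were lower with scan day as a block. Cdk4 ran from 8.79 to 9.98 (median 9.35) at E15 and read 7.95, 7.98, 7.79 and 8.03 at P1, a 2.62-fold fall of 1.39 (SE 0.20, adjusted p = 0.000665). Its cyclin partners Ccnd1 and Ccnd2 fell by 0.90 (SE 0.12, adjusted p = 0.00062) and 1.04 (SE 0.20, adjusted p = 0.00307). Cdkn1c, an imprinted inhibitor of these kinases, ran from 10.64 to 14.00 (median 11.33) and read 9.39, 9.82, 9.85 and 9.42, a fall of 2.07 (SE 0.53, adjusted p = 0.0132). The value of 14.00 belonged to E15 control 1, and without that animal the fall was 1.61 (adjusted p = 0.000412). Cdkn1a, the inhibitor p21, was at 0.39 (SE 0.16, adjusted p = 0.0915) with overlapping groups, and passed without E15 control 1 or 5.

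Among radial glia and neural stem cell genes falls outnumbered rises. Of 29 tested, 13 were lower (44.8%) and 4 higher (13.8%), with a median of -0.40, and 5 and 3 were so with scan day as a block. Nes, the intermediate filament of neural progenitors, ran from 9.45 to 10.11 (median 9.91) at E15 and read 8.73, 8.72, 8.48 and 8.26 at P1. The groups were apart, with a 2.47-fold fall of 1.30 (SE 0.14, adjusted p = 0.000155). Tead2, a transcription factor of the Hippo pathway, ran from 8.21 to 8.88 (median 8.60) and read 7.06, 6.83, 6.90 and 6.96, a 3.08-fold fall of 1.62 (SE 0.12, adjusted p = 4.76e-05). Slc1a3, the glutamate transporter GLAST of radial glia and astrocytes, ran from 9.06 to 9.91 (median 9.54) and read 10.78, 10.59, 10.68 and 10.68, a rise of 1.2 (SE 0.16, adjusted p = 0.000557). Fgfr3, a receptor for fibroblast growth factors, ran from 7.62 to 7.93 (median 7.66) and read 10.02, 9.84, 9.85 and 10.48. That 5.10-fold rise of 2.35 (SE 0.12, adjusted p = 4.9e-06) was read by 1 of 3 probes, the others reaching down to 0.01. Sox2, a transcription factor of stem cells and glia, gave -0.01 (SE 0.21, adjusted p = 0.985), and Pax6 -0.35 (SE 0.22, adjusted p = 0.25). Pax6 passed without E15 control 1, at -0.52 (adjusted p = 0.0221). Hes5, a Notch target, was at -0.11 (SE 0.26, adjusted p = 0.776).

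Intermediate progenitor genes and proneural factors, which commit a cell to a neuronal fate, had 11 of 22 members lower and 2 higher, with a median of -0.55. Scan day as a block left 2 lower and 1 higher. Gadd45g, expressed as cells leave division, ran from 9.49 to 10.93 (median 10.40) at E15 and read 9.02, 8.62, 8.72 and 9.06 at P1, a fall of 1.42 (SE 0.26, adjusted p = 0.00276). Neurog2, a proneural factor of the cortex, ran from 7.66 to 8.82 (median 7.96) and read 7.31, 7.07, 7.05 and 7.60. Its groups did not overlap, though the gap between them was small, at -0.88 (SE 0.24, adjusted p = 0.0159), and without P1 control 3 it missed the threshold (-0.81, adjusted p = 0.0506). Eomes, the factor that marks intermediate progenitors, was at -0.61 (SE 0.25, adjusted p = 0.0798). The E15 animals spanned 6.03 to 7.70 for Eomes, and without control 1 the difference was -0.80 (adjusted p = 0.00351). Mfng, a modifier of Notch receptors, fell by 1.1 (SE 0.25, adjusted p = 0.00683). Atoh1, the proneural factor of cerebellar granule cells, rose from 6.16 to 6.45 (median 6.33) to 6.69, 6.74, 6.95 and 7.03, by 0.52 (SE 0.09, adjusted p = 0.00142), with signal well above background on 13 of 14 E15 channels. As in the plot of list means, E15 control 1 lay with the P1 animals for this list, at 7.69 against 7.71 to 7.75, while the other E15 animals were at 8.11 to 8.44.

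**Figure D2:**
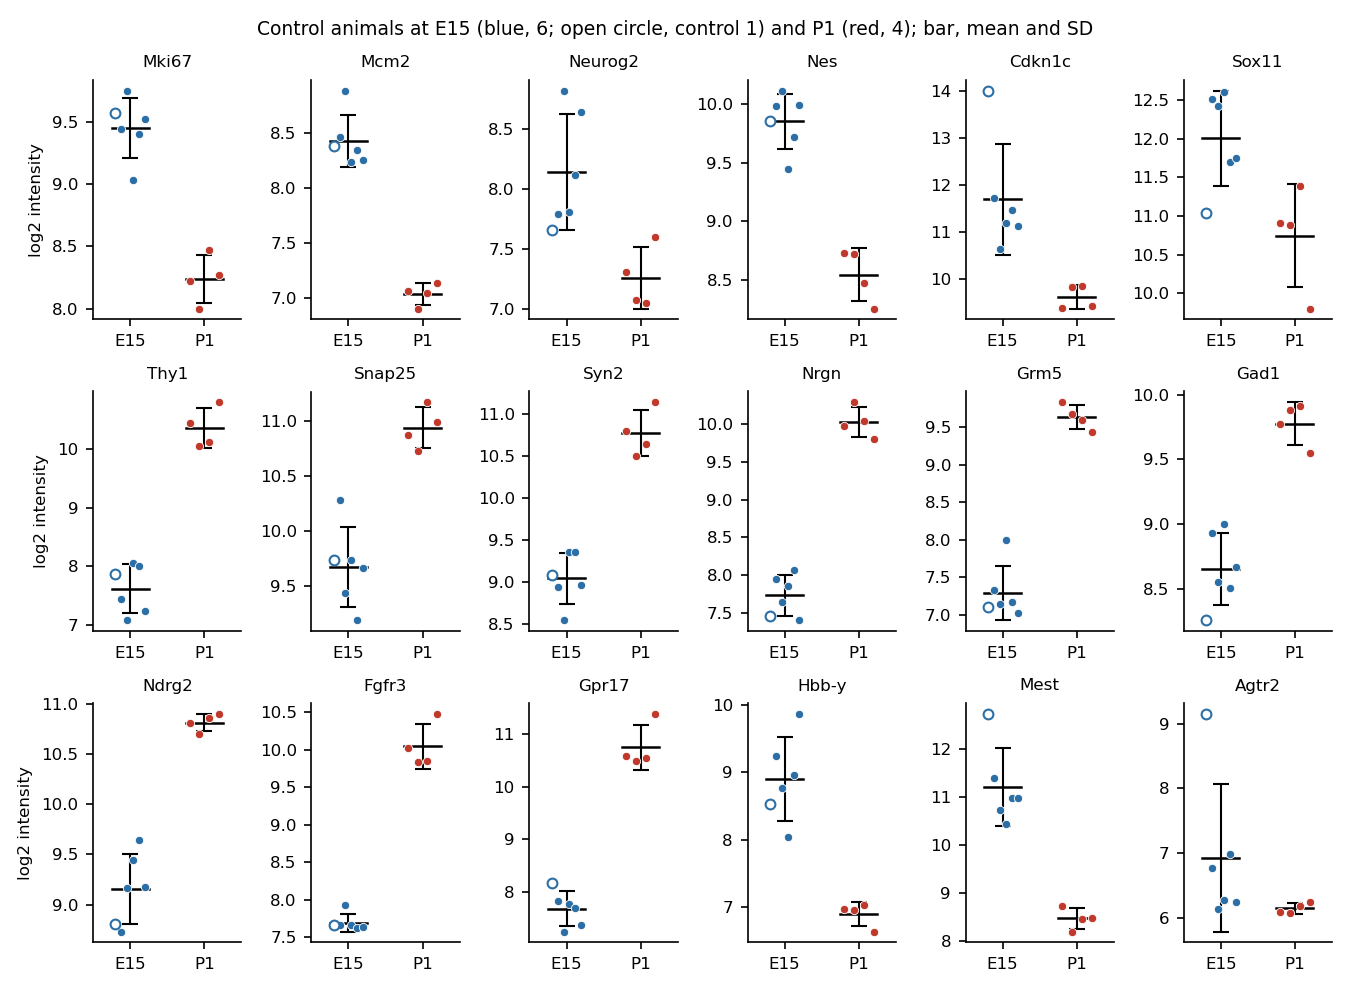
Normalised log2 intensity (y axis) of 18 genes in each control animal at E15 (blue, 6 animals, control 1 as an open circle) and P1 (red, 4 animals), with mean and SD as black bars. Mki67, Mcm2 and Nes are lower in all P1 animals, Thy1, Nrgn, Grm5 and Gpr17 are higher in all of them, and for Agtr2 and Cdkn1c E15 control 1 lies far above the rest.

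Genes of migrating and newborn neurons, by contrast, were mixed, with 9 of 34 higher (26.5%) and 7 lower (20.6%) and a median of 0.15. The median's sign depended on the scaling: with the 75th percentile in place of quantiles it was -0.19, with 1 higher and 10 lower. With scan day as a block 2 were higher and 2 lower, and without P1 control 4 the number lower was 4. Stmn2, a regulator of microtubules in growing axons, ran from 10.84 to 11.90 (median 11.34) at E15 and read 12.60, 12.40, 12.64 and 12.28 at P1, a rise of 1.16 (SE 0.17, adjusted p = 0.000793). Pafah1b1, the lissencephaly gene needed for migration, rose by 1.37 (SE 0.14, adjusted p = 0.000137), with its second probe at -0.16. Dcx, doublecortin, rose by 0.58 (SE 0.18, adjusted p = 0.0334) with overlapping groups, 3 probes from -0.04 to 0.58, and a call that was lost when any of 5 animals was left out. On the other side, Igfbpl1 fell by 1.65 (SE 0.25, adjusted p = 0.000913) and Rnd3, a small GTPase of migrating neurons, by 1.34 (SE 0.11, adjusted p = 6.12e-05). Sox11, a transcription factor of immature neurons, ran from 11.04 to 12.61 (median 12.09) and read 10.91, 10.88, 11.39 and 9.80. Its fall of 1.26 (SE 0.36, adjusted p = 0.0206) rested in part on P1 control 4, without which it was -0.95 (adjusted p = 0.0632). Tubb3, the neuronal tubulin, was at 0.35 (SE 0.16, adjusted p = 0.119).

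The cytoskeleton and axonal membrane of neurons rose. Of 32 genes, 18 (56.2%) were higher and 1 lower, with a median of 0.54, and 6 were higher with none lower with scan day as a block. Thy1, a glycoprotein of the surface of mature neurons, ran from 7.08 to 8.05 (median 7.66) at E15 and read 10.45, 10.06, 10.12 and 10.80 at P1. This 6.70-fold rise of 2.74 (SE 0.22, adjusted p = 5.49e-05) left more than 2 log2 units between the groups, and its second probe gave 0.41. Cntn1, a contactin of axons, ran from 7.68 to 8.76 (median 8.14) and read 10.57, 10.69, 10.74 and 10.49. Both of its probes rose, by 2.34 and 2.45 (SE 0.23, adjusted p = 9.97e-05 for the latter). Nefm, the medium neurofilament, rose by 1.42 (SE 0.21, adjusted p = 0.000782), whereas the heavy neurofilament Nefh, which is added late to axons, was at 0.55 (SE 0.22, adjusted p = 0.0837) and passed only without E15 control 1. Map2, a dendritic protein, was at 0.23 (SE 0.09, adjusted p = 0.0742) and passed only without E15 control 4. Its signal was low, between 6.38 and 6.89 in all animals. Nfasc fell by 0.32 (SE 0.10, adjusted p = 0.0268), a call lost when P1 control 2, 3 or 4 was left out.

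Synaptic vesicle and transmitter release genes gave the highest share of rises among all lists, 26 of 39 (66.7%), with 3 lower and a median of 0.57. Scan day as a block left 8 higher and none lower, and leaving out single animals left 22 to 26 higher. The list mean lay between 8.09 and 8.39 in the E15 animals and between 8.75 and 8.82 in the P1 animals. Snap25, a SNARE protein of vesicle fusion, ran from 9.19 to 10.28 (median 9.70) at E15 and read 10.87, 10.73, 11.17 and 10.99 at P1, a rise of 1.26 (SE 0.18, adjusted p = 0.000684). Syn2, a synapsin that tethers vesicles, ran from 8.55 to 9.36 (median 9.03) and read 10.80, 10.50, 10.65 and 11.14, a 3.31-fold rise of 1.73 (SE 0.17, adjusted p = 0.000113). In both genes every P1 animal exceeded every E15 animal. Nsf, the ATPase that recycles SNARE complexes, rose by 1.47 (SE 0.19, adjusted p = 0.000435), Syp, synaptophysin, by 1.38 (SE 0.27, adjusted p = 0.00363) and Syt1, the calcium sensor of release, by 1.16 (SE 0.19, adjusted p = 0.00145). Syt1 here, Gria1 among the receptors, and Aldoc and Gja1 among the astrocyte genes were picked after their values were seen. Syn1 was at -0.05 (SE 0.28, adjusted p = 0.897) with 3 probes from -0.12 to 0.22. Syngr3, a vesicle membrane protein, fell by 0.37 (SE 0.06, adjusted p = 0.00172) at a low signal. Cadps, a priming factor, fell by 0.26 (SE 0.07, adjusted p = 0.0167) on the probe kept, but was at 1.30 with outlier spots kept, since a brighter probe then represented it.

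At the receiving side of the synapse, 11 of 27 glutamate receptor genes were higher and 4 lower, with a median of 0.14, and 4 were higher with none lower with scan day as a block. Grm5, the metabotropic receptor mGluR5, ran from 7.02 to 8.00 (median 7.16) at E15 and read 9.83, 9.68, 9.59 and 9.44 at P1, a 5.07-fold rise of 2.34 (SE 0.18, adjusted p = 4.09e-05). The groups were more than 1 log2 unit apart, although the second probe was at 0.02. Gria2, the AMPA receptor subunit that limits calcium entry, ran from 8.70 to 9.44 (median 9.24) and read 11.01, 10.71, 10.62 and 10.66, a 3.07-fold rise of 1.62 (SE 0.15, adjusted p = 9.4e-05). Gria1 rose by 1.01 (SE 0.19, adjusted p = 0.00263). NMDA receptor subunits had small differences: Grin1 fell by 0.28 (SE 0.09, adjusted p = 0.04), Grin2b rose by 0.35 (SE 0.11, adjusted p = 0.0291), and Grin2d fell by 0.43 (SE 0.10, adjusted p = 0.00697). Grin1 had low signal, between 6.50 and 7.13 in all animals, and whether this hides a larger change was not tested. The calls of Grin1 and Grin2b were lost when any of 7 and any of 5 animals, respectively, was left out, and the 4 probes of Grin2b ran from -0.28 to 0.35.

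Postsynaptic scaffold and synapse adhesion genes had 14 of 37 members higher and 3 lower, with a median of 0.23, and 5 and 1 with scan day as a block. Nrgn, neurogranin, which binds calmodulin in dendritic spines, ran from 7.40 to 8.07 (median 7.74) at E15 and read 9.98, 10.29, 10.04 and 9.81 at P1. The rise was 4.95-fold, 2.31 (SE 0.14, adjusted p = 1.71e-05), with no overlap. Cdh13, an adhesion protein, rose by 0.97 (SE 0.15, adjusted p = 0.000948), and Sorbs2 fell by 0.96 (SE 0.15, adjusted p = 0.00102). Dlg4, the scaffold PSD-95, was at 0.06 (SE 0.06, adjusted p = 0.501) and Homer1 at -0.16 (SE 0.09, adjusted p = 0.164). Dlg4 had low signal, between 6.58 and 6.82 in all animals, and whether this hides a change was not tested. Camk2a, a kinase of excitatory synapses, rose by 0.48 (SE 0.15, adjusted p = 0.0309), a call lost when any of 7 animals was left out.

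**Figure D3:**
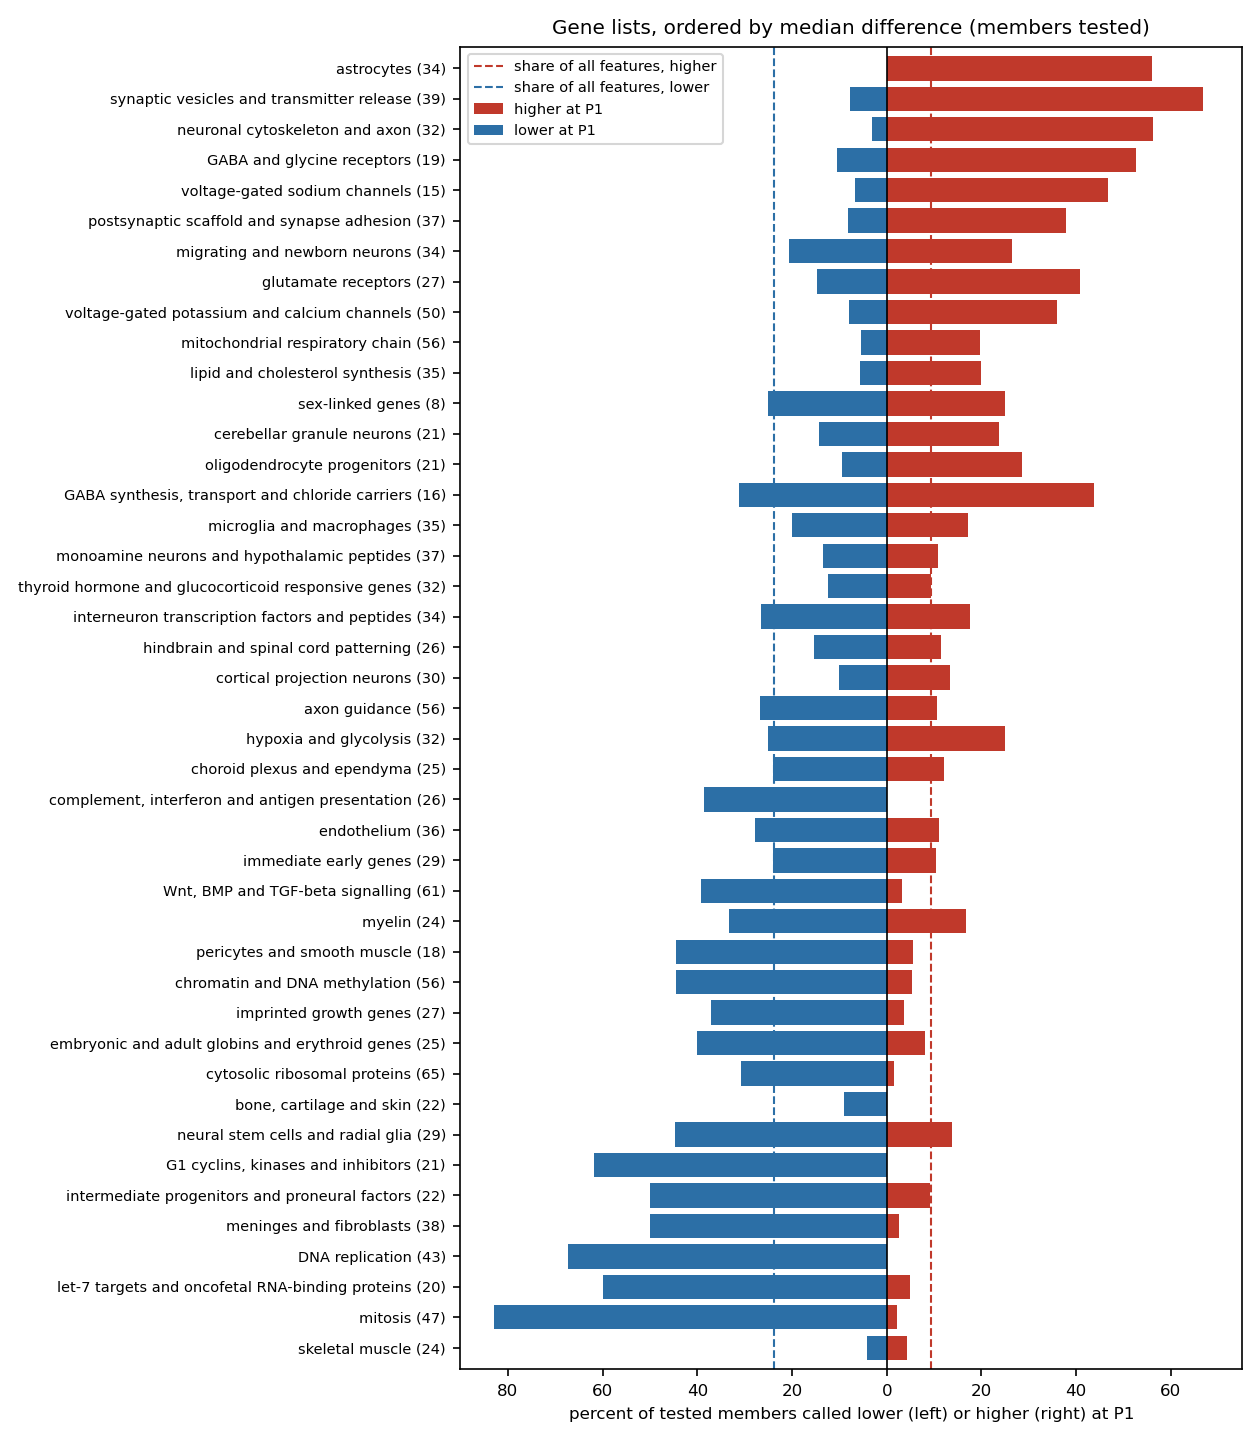
Percent of tested members called lower (blue, to the left) or higher (red, to the right) at P1 in 43 gene lists, ordered by median difference with the number tested in brackets; dashed lines mark the share of all features, 23.9% lower and 9.28% higher. Synaptic vesicle genes (66.7%) and neuronal cytoskeleton genes (56.2%) reach farthest to the right, and mitosis (83.0%) and DNA replication (67.4%) farthest to the left; for newborn neurons, ribosomal proteins and respiratory chain the split moves with the scaling.

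Receptors for the inhibitory transmitters GABA and glycine had 10 of 19 members higher and 2 lower, with a median of 0.46, and 4 higher with none lower with scan day as a block. Gabrg1 rose by 1.12 (SE 0.14, adjusted p = 0.000408) and Gabra2 by 0.46 (SE 0.09, adjusted p = 0.00339). The glycine receptor Glra2 was at 0.15 (SE 0.15, adjusted p = 0.462). Among 16 genes of GABA synthesis, transport and chloride balance, 7 were higher and 5 lower, with a median of 0.05, and 3 were higher with none lower with scan day as a block. Gad1, which makes most GABA, ran from 8.26 to 9.0 (median 8.61) and read 9.77, 9.88, 9.91 and 9.55, a rise of 1.12 (SE 0.14, adjusted p = 0.00036) that both probes showed. Gad2 rose by 0.92 (SE 0.18, adjusted p = 0.00315). Slc12a2, the chloride importer NKCC1, was at -0.17 (SE 0.09, adjusted p = 0.167), and Slc12a7, a potassium chloride exporter, fell by 0.59 (SE 0.12, adjusted p = 0.00399). Abat, which breaks down GABA, rose by 1.14 (SE 0.20, adjusted p = 0.00214) on 1 probe and stood at -1.18 on the other, and the mean of both was -0.02.

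Ion channels of excitable membranes followed. Of 15 sodium channel genes, 7 were higher and 1 lower, with a median of 0.25, and 3 were higher with none lower with scan day as a block. Scn2a, the main sodium channel of immature axons, ran from 7.11 to 8.38 (median 7.25) at E15 and read 8.62, 9.38, 9.0 and 8.93 at P1, a rise of 1.46 (SE 0.26, adjusted p = 0.00223). Scn8a rose by 0.95 (SE 0.11, adjusted p = 0.000285) and Scn1a by 0.71 (SE 0.13, adjusted p = 0.00227), while Scn3a, the embryonic type, was at 0.21 (SE 0.09, adjusted p = 0.0982). Fgf12, an intracellular partner of sodium channels, rose by 1.12 (SE 0.13, adjusted p = 0.000247), with 4 probes from -0.02 to 1.12. Among 50 potassium and calcium channel genes, 18 were higher and 4 lower, with a median of 0.13, and 5 were higher with none lower with scan day as a block. Kcnj10, the potassium channel Kir4.1 of glia, ran from 6.88 to 7.30 (median 7.12) and read 8.41, 8.16, 8.48 and 8.64, a 2.54-fold rise of 1.34 (SE 0.11, adjusted p = 6.12e-05). Kcnd2, an A-type channel of dendrites, rose by 0.99 (SE 0.14, adjusted p = 0.000554). Hcn2, a pacemaker channel, fell by 0.52 (SE 0.11, adjusted p = 0.0047).

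Genes that name regions and neuron classes moved in both directions, against a background of 9.28% higher and 23.9% lower. Of 34 interneuron genes, 6 were higher and 9 lower (median -0.04), of 30 cortical projection neuron genes 4 and 3 (median -0.07), and of 26 hindbrain patterning genes 3 and 4 (median -0.04). Without E15 control 1 the cortical list had 10 lower (median -0.14), and without P1 control 4 it had 6 higher and 1 lower. The hindbrain list had 6 higher without E15 control 6 and 6 lower without E15 control 4, and the interneuron list had 6 lower without P1 control 4. Scan day as a block left 1, 2 and 1 higher and none lower in the 3 lists. Dlx2, a transcription factor of ventral forebrain progenitors, ran from 7.93 to 9.76 (median 8.96) at E15 and read 7.49, 7.42, 6.92 and 6.82 at P1, a 3.34-fold fall of 1.74 (SE 0.29, adjusted p = 0.00148). Sst, somatostatin, a peptide of interneurons, rose by 1.09 (SE 0.13, adjusted p = 0.00027) and Calb1, a calcium buffer, by 1.1 (SE 0.19, adjusted p = 0.00207). Mef2c, a factor of maturing cortical neurons, ran from 6.93 to 8.32 (median 7.31) and read 9.66, 9.65, 8.99 and 8.55, a 3.41-fold rise of 1.77 (SE 0.31, adjusted p = 0.00187). Tbr1 and Fezf2, which set the identity of cortical layers, were at -0.55 (SE 0.30) and -0.44 (SE 0.34) and were not called, and without E15 control 1 they were lower, at -0.78 (adjusted p = 0.00849) and -0.69 (adjusted p = 0.0343).

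These region genes varied between animals of an age. The mean of the cortical list was lowest at 7.84 in E15 control 1 and 7.75 in P1 control 4, against 8.1 to 8.47 and 8.13 to 8.39 in the others of their age. The hindbrain list ran from 7.01 to 7.62 at E15 and from 7.04 to 7.33 at P1. How much forebrain each sample held was not measured, and its part in the differences between the ages was not tested. Of 21 cerebellar granule neuron genes, 5 were higher and 3 lower (median 0.08), 1 and 0 with scan day as a block, and Car8, which is strong in Purkinje cells, rose by 0.92 (SE 0.14, adjusted p = 0.0011).

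**Figure D4:**
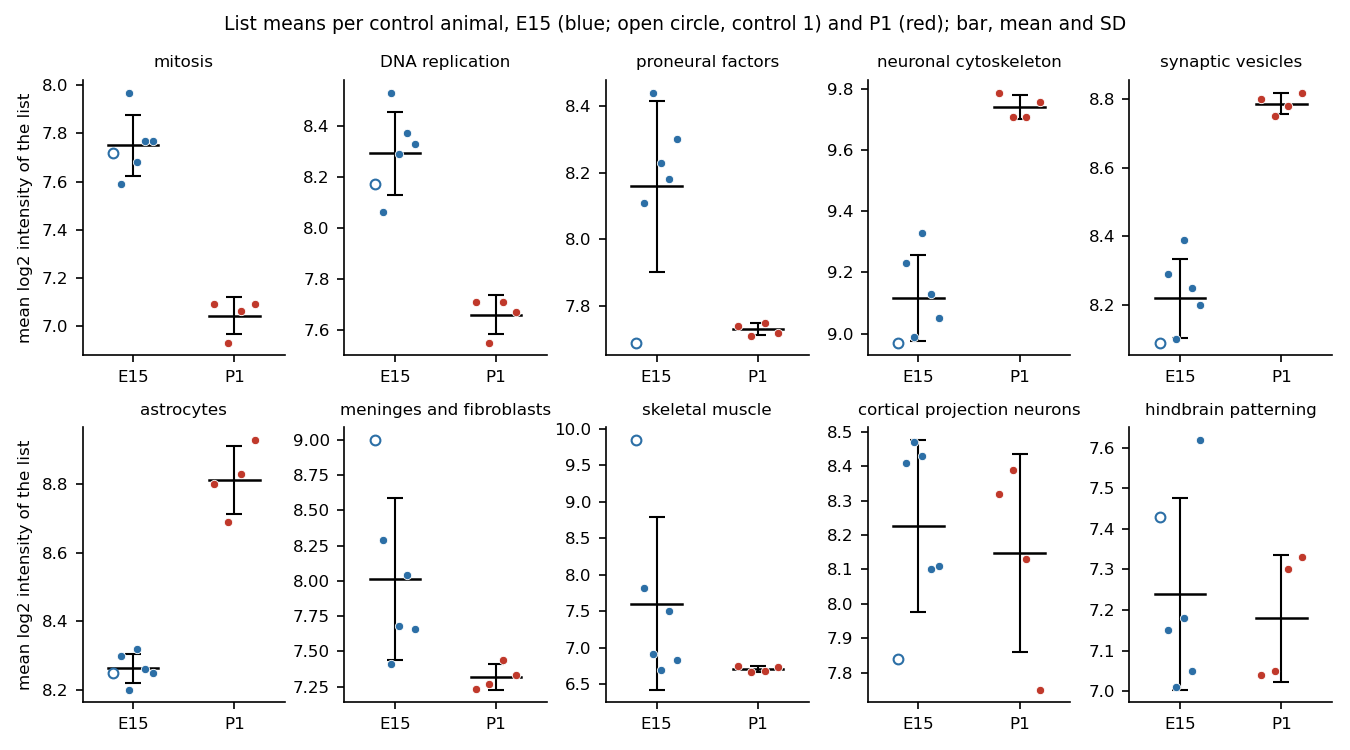
Mean log2 intensity (y axis) of 10 gene lists in each control animal at E15 (blue, 6 animals, control 1 as an open circle) and P1 (red, 4 animals), with mean and SD as black bars. The ages are apart for mitosis, DNA replication, neuronal cytoskeleton, synaptic vesicles and astrocytes, whereas muscle (9.85) and meninges (9.0) stand high in E15 control 1, and cortical and hindbrain lists overlap.

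Astrocyte genes had 19 of 34 members called higher (55.9%) and none called lower, with a median of 0.57. Differences were above 0 in 24 members and below 0 in 10, down to -0.52. Scan day as a block left 7 higher and none lower, and leaving out single animals left 17 to 19 higher with at most 1 lower. List means were 8.20 to 8.32 at E15 and 8.80, 8.69, 8.83 and 8.93 at P1. Ndrg2, an astrocyte protein, ran from 8.73 to 9.64 (median 9.16) at E15 and read 10.81, 10.70, 10.86 and 10.90 at P1. This 3.16-fold rise of 1.66 (SE 0.16, adjusted p = 0.000116) was tight among the P1 animals. Glul, glutamine synthetase, which recycles glutamate, ran from 8.45 to 9.13 (median 8.63) and read 9.85, 9.66, 9.80 and 10.01, a rise of 1.12 (SE 0.13, adjusted p = 0.000267), with 3 probes from -0.19 to 1.12. Aldh1l1, a folate enzyme used as an astrocyte marker, rose by 0.88 (SE 0.19, adjusted p = 0.00529) and Aldoc by 1.03 (SE 0.26, adjusted p = 0.0117). Slc1a2, the glutamate transporter GLT-1, rose by 0.83 (SE 0.13, adjusted p = 0.00115) on its brightest probe, while its 5 probes ran from -0.82 to 0.83. Aqp4, the water channel of astrocyte endfeet, rose by 0.44 (SE 0.12, adjusted p = 0.016), with another probe at 2.15, and missed the threshold without P1 control 4. Gfap, the filament of mature and reactive astrocytes, was at -0.04 (SE 0.09, adjusted p = 0.741), between 6.06 and 6.43 in all animals and well above background on 6 of 8 P1 channels. Gja1, connexin 43, was at -0.50 (SE 0.34, adjusted p = 0.286).

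The oligodendrocyte lineage was led by Gpr17, a receptor of cells about to differentiate. It ran from 7.25 to 8.17 (median 7.73) at E15 and read 10.58, 10.48, 10.55 and 11.38 at P1, a rise of 8.39-fold or 3.07 (SE 0.21, adjusted p = 2.79e-05). Every P1 animal was more than 2 log2 units above every E15 animal, and the second probe was at -0.21. Olig1, a factor of the lineage, ran from 6.98 to 7.96 (median 7.66) and read 8.75, 8.72, 8.86 and 8.92, a rise of 1.25 (SE 0.16, adjusted p = 0.000392). Of the 21 progenitor genes 6 were higher and 2 lower (median 0.06), and 5 and 1 with scan day as a block. Pdgfra, the growth factor receptor of the progenitors, was at 0.06 (SE 0.30, adjusted p = 0.907), with an E15 range of 7.14 to 9.04. Myt1 fell by 0.93 (SE 0.14, adjusted p = 0.000996). Myelin genes moved both ways: 4 of 24 were higher (16.7%) and 8 lower (33.3%), against 9.28% and 23.9% of all features. Their median was -0.19, and 3 were higher and 0 lower with scan day as a block. Mbp, myelin basic protein, was at 0.03 (SE 0.15, adjusted p = 0.882) on its brightest probe and 1.62 on the other. Cnp was at 0.47 (SE 0.19, adjusted p = 0.0833) and passed without P1 control 2 (0.72). Mag was at -0.71 (SE 0.28, adjusted p = 0.0684).

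Microglia and macrophage genes gave 6 of 35 higher and 7 lower, against 9.28% and 23.9% of all features. Their median was 0.02, and 0 were higher and 1 lower with scan day as a block. Without P1 control 3 the number higher was 3, and without P1 control 2 or 4 the number lower was 4. Aif1, which marks microglia, rose by 0.33 (SE 0.09, adjusted p = 0.0198) with its second probe at -0.08, Csf1r, their growth factor receptor, was at 0.12 (SE 0.11, adjusted p = 0.418) and Cx3cr1 at -0.03 (SE 0.09, adjusted p = 0.805). The signal of Cx3cr1 was low, between 6.36 and 6.70. P2ry12, a receptor of resting microglia, rose by 0.40 (SE 0.12, adjusted p = 0.0238) with overlapping groups, a call lost when P1 control 1, 2 or 3 was left out. The call of Aif1 was lost without P1 control 1 or 3. Tmem119, another gene of microglia, went the other way. It was called lower whichever animal was left out, at -0.88 to -0.63 (adjusted p from 0.00945 to 0.0494). Pf4, carried by platelets and some brain macrophages, ran from 7.36 to 7.66 (median 7.58) at E15 and read 6.55, 6.90, 6.89 and 6.68 at P1, a fall of 0.79 (SE 0.09, adjusted p = 0.000242). In the list of complement, interferon and antigen presentation 10 of 26 were lower and none higher (median -0.14), and none was called with scan day as a block. Without P1 control 1 the number lower was 6.

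Among vessel genes, the endothelial list gave 4 higher and 10 lower of 36, 11.1% and 27.8% against 9.28% and 23.9% of all features (median -0.15), 1 and 2 with scan day as a block, and the pericyte and smooth muscle list 1 and 8 of 18 (median -0.24), 1 and 2 with the block. Without any 1 of P1 controls 1, 2 and 3 the number of pericyte genes called lower was 5. Slc2a1, the glucose transporter of brain endothelium, ran from 10.05 to 10.51 (median 10.29) at E15 and read 8.87, 8.72, 9.18 and 8.93 at P1, a 2.55-fold fall of 1.35 (SE 0.11, adjusted p = 5.47e-05). Lef1, a target and effector of Wnt signalling in vessels and progenitors, ran from 8.21 to 8.83 (median 8.43) and read 6.95, 7.15, 7.42 and 6.90, a fall of 1.38 (SE 0.15, adjusted p = 0.00018). Its second probe was at -0.10. In both genes the groups were more than 0.7 log2 units apart. Cdh5, the cadherin of endothelial junctions, fell by 1.12 (SE 0.21, adjusted p = 0.00294), while Pecam1, Cldn5 and Kdr, other endothelial markers, were at -0.11 (SE 0.07), -0.25 (SE 0.11) and -0.25 (SE 0.17) and were not called, although Cldn5 passed without E15 control 3. Slc16a1, a lactate carrier, rose by 0.77 (SE 0.07, adjusted p = 9.19e-05), with 3 probes from -0.10 to 0.80, and Ramp2, a receptor partner in endothelium, rose by 1.64 (SE 0.31, adjusted p = 0.00294), with its second probe at -0.41. Pdgfrb, the receptor of pericytes, ran from 7.80 to 8.83 (median 8.22) and read 6.95, 6.86, 7.04 and 7.16, a fall of 1.22 (SE 0.18, adjusted p = 0.000778). Kcnj8, a potassium channel of pericytes, fell by 1.02 (SE 0.10, adjusted p = 0.000138), with its second probe at -0.13. Rgs5, another pericyte gene, was at -0.11 (SE 0.23, adjusted p = 0.748).

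Genes of meninges and fibroblasts, the tissue around the brain, had 19 of 38 members lower and 1 higher, with a median of -0.63, and with scan day as a block 0 and 1. The counts depended on single animals: 8 to 25 were lower when 1 animal was left out, with 8 without P1 control 1, 10 without E15 control 2, P1 control 2 or P1 control 3, 9 without P1 control 4 and 12 without E15 control 5. Without E15 control 1, which had the highest list mean of 9.0 against 7.41 to 8.29 in the other E15 animals and 7.23 to 7.44 at P1, 21 were lower with a median of -0.43. Col1a1, a collagen of fibroblasts and bone, ran from 9.07 to 14.32 (median 10.35) at E15 and read 8.63, 8.46, 8.78 and 8.86 at P1. The groups did not overlap, but the difference of -2.50 (SE 0.96, adjusted p = 0.0679) was not called, and without E15 control 3 it was called at -2.92. Col3a1 fell by 1.49 (SE 0.45, adjusted p = 0.0263), a call lost without P1 control 1 or 2, and its 3 probes ran from -1.49 to 0.08. Dcn, decorin, was at -0.44 (SE 0.40, adjusted p = 0.411). Ptgds, the prostaglandin D synthase of the leptomeninges and choroid plexus, went up. It ran from 8.1 to 9.69 (median 9.55) at E15 and read 10.75, 11.56, 11.63 and 11.32 at P1, a 4.15-fold rise of 2.05 (SE 0.31, adjusted p = 0.000882).

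Skeletal muscle genes were prominent in E15 control 1, with a list mean of 9.85, against 6.70 to 7.82 in the other E15 animals and 6.67 to 6.75 at P1. Of 24 tested, 1 was higher and 1 lower (median -0.82), 1 and 0 with scan day as a block, and without that animal 1 and 4 (median -0.29). Myh3, the embryonic myosin heavy chain, ran from 6.27 to 12.84 (median 7.78) at E15 and read 6.35, 6.50, 6.31 and 6.46 at P1 (difference -1.98, SE 1.09, adjusted p = 0.187). Neb, which encodes nebulin, rose by 0.77 (SE 0.07, adjusted p = 8.95e-05) at levels near 6 to 7, with 5 probes from -0.33 to 0.77. Bone, cartilage and skin genes had 2 of 22 lower and none higher (median -0.40, or -0.29 without E15 control 1), and none was called with scan day as a block. Of these, Col2a1, the cartilage collagen, fell by 1.63 (SE 0.49, adjusted p = 0.0254), a call lost when any 1 P1 animal was left out. Choroid plexus and ependyma genes gave 3 higher and 6 lower of 25 (median -0.14), 0 and 2 with scan day as a block. The shares in the main fit were near the 9.28% higher and 23.9% lower of all features. Single animals left out gave 4 to 9 lower, with 9 without E15 control 1. Ttr, transthyretin, the main product of the choroid plexus, was at -0.96 (SE 0.44, adjusted p = 0.117), and at -1.31 (adjusted p = 0.00426) without E15 control 1. Clic6, a chloride channel protein, fell by 0.96 (SE 0.12, adjusted p = 0.000428).

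Globin RNA fell for embryonic and adult types. Hbb-y, the embryonic epsilon globin, ran from 8.03 to 9.87 (median 8.86) at E15 and read 6.96, 6.95, 7.02 and 6.63 at P1, a 4.03-fold fall of 2.01 (SE 0.29, adjusted p = 0.000711). Hba-x, embryonic zeta globin, fell by 0.90 (SE 0.24, adjusted p = 0.0164) and Hbb-bh1 by 0.39 (SE 0.08, adjusted p = 0.00499), both well above background on 7 of 8 P1 channels. Adult alpha globin, Hba-a1, ran from 12.05 to 13.65 (median 13.18) and read 10.24, 10.98, 11.49 and 10.84, a fall of 2.14 (SE 0.32, adjusted p = 0.000971). Adult beta globin, Hbb-bt, ran from 13.22 to 14.27 (median 13.93) and read 11.19, 11.77, 12.20 and 11.84, a fall of 2.13 (SE 0.23, adjusted p = 0.00018). Its 4 probes ran from -3.04 to -2.13. For all of these genes the ages did not overlap, and the adult alpha and beta globins share sequence with close copies, so a probe may read more than 1 gene. Of the 25 globin and erythroid genes 10 were lower and 2 higher (median -0.32), and 5 and 1 with scan day as a block. Sptb, a spectrin of the red cell membrane that neurons also make, rose by 0.56 (SE 0.08, adjusted p = 0.000639), with its second probe at 0.00.

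Growth genes of fetal life were lower. Of 20 let-7 targets and oncofetal RNA-binding proteins, 12 were lower and 1 higher, with a median of -0.67, and 4 were lower with scan day as a block. Igf2bp1, an RNA-binding protein of fetal tissue and a let-7 target, ran from 7.03 to 7.69 (median 7.25) at E15 and read 6.20, 6.34, 6.42 and 6.01 at P1, a fall of 1.05 (SE 0.12, adjusted p = 0.000269). Mycl, a Myc family factor, ran from 9.35 to 9.76 (median 9.59) and read 8.16, 8.33, 8.18 and 7.70, a fall of 1.48 (SE 0.12, adjusted p = 7.02e-05). Dicer1, the enzyme that cuts microRNA precursors, rose by 0.90 (SE 0.19, adjusted p = 0.0053), with its other probe at -0.09. Lin28b, which blocks let-7 maturation, was at -0.05 (SE 0.07, adjusted p = 0.581) at low signal, with its second probe at 0.27. Hmga2 was at -0.25 (SE 0.12, adjusted p = 0.144) on its brightest probe and -1.18 on the other. Imprinted growth genes had 10 of 27 lower and 1 higher, with a median of -0.31, 2 and 1 with scan day as a block, and 12 and 2 with a median of -0.16 without E15 control 1. Without P1 control 3 the number lower was 6. Mest ran from 10.43 to 12.73 (median 10.98) and read 8.73, 8.19, 8.46 and 8.48, the largest fall among called genes with a symbol at 6.68-fold or -2.74 (SE 0.37, adjusted p = 0.000523), and -2.43 without E15 control 1. Dlk1, an imprinted relative of Notch ligands, fell by 2.17 (SE 0.63, adjusted p = 0.0233), H19, an imprinted noncoding RNA, by 1.52 (SE 0.46, adjusted p = 0.0277) and Plagl1 by 1.92 (SE 0.38, adjusted p = 0.0038). The call of Dlk1 was lost without P1 control 1, 2 or 3, and that of H19 without E15 control 2 or P1 control 1, 3 or 4. Igf2 was at -1.14 (SE 0.50, adjusted p = 0.101) with groups that did not overlap, and at -0.72 (adjusted p = 0.0225) without E15 control 1. In contrast Impact, an imprinted gene strong in neurons, rose by 0.74 (SE 0.12, adjusted p = 0.00149).

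Chromatin and signalling genes of growing tissue were described by 3 lists. Among 56 chromatin and DNA methylation genes 25 were lower and 3 higher, with a median of -0.31, and 7 and 1 with scan day as a block. Ezh2, the methyltransferase of Polycomb complexes, fell by 1.15 (SE 0.26, adjusted p = 0.00644), and only E15 control 1, at 7.53, lay among the P1 values of 7.12 to 7.56. H2ax, a histone of the DNA damage response, ran from 10.88 to 11.44 (median 11.07) at E15 and read 9.59, 9.83, 9.94 and 9.63 at P1, a fall of 1.37 (SE 0.12, adjusted p = 8.91e-05). Rcor2, a corepressor of neural progenitors, fell by 1.65 (SE 0.27, adjusted p = 0.00137). Chd5, a chromatin remodeller of neurons, ran from 7.38 to 8.41 (median 7.64) and read 9.42, 9.48, 9.26 and 9.02, a 2.94-fold rise of 1.56 (SE 0.18, adjusted p = 0.000237), with its other probe at 0.00. Chd3 rose by 1.15 (SE 0.21, adjusted p = 0.0028), with 5 probes from -0.49 to 1.43. Among 61 genes of Wnt, BMP and TGF-beta signalling 24 were lower and 2 higher, with a median of -0.18, and 4 and 0 with the block. Axin2, a target that feeds back on Wnt signals, fell by 0.86 (SE 0.11, adjusted p = 0.000415), the receptor Fzd10 by 1.40 (SE 0.11, adjusted p = 5.47e-05) and the Wnt antagonist Sfrp2 by 1.55 (SE 0.34, adjusted p = 0.00604). The second probe of Fzd10 was at -0.21. Of 56 axon guidance genes 15 were lower (26.8%) and 6 higher (10.7%), near the 23.9% and 9.28% of all features (median -0.08), and 1 and 3 with the block. The ephrin Efnb1 fell by 1.56 (SE 0.25, adjusted p = 0.00137), whereas the ephrin receptor Epha5 rose by 1.16 (SE 0.14, adjusted p = 0.000339) and the semaphorin Sema7a by 0.80 (SE 0.11, adjusted p = 0.000525).

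For genes of protein synthesis and of the respiratory chain the counts followed the scaling. Of 65 cytosolic ribosomal protein genes 20 were lower (30.8%, against 23.9% of all features) and 1 higher, with a median of -0.34, and 5 and 0 with scan day as a block. With the 75th percentile as the scale 44 were lower and none higher, with a median of -0.88. Rps29 fell by 1.26 (SE 0.18, adjusted p = 0.000632) and Rplp0 by 0.68 (SE 0.13, adjusted p = 0.00294), the latter with 1 saturated E15 channel. Of 56 respiratory chain genes 11 were higher and 3 lower, with a median of 0.13, and none was called with scan day as a block. Under the 75th percentile none was higher and 9 were lower, with a median of -0.22, so no direction holds for this list. Without E15 control 3 or P1 control 3 the number higher was 7. Among 32 hypoxia and glycolysis genes 8 were higher and 8 lower (median -0.13), 4 and 2 with the block. In the main fit the share lower was near the 23.9% of all features, and the share higher was above their 9.28%. Pfkp, a phosphofructokinase of brain, ran from 7.04 to 7.80 (median 7.31) at E15 and read 9.97, 8.92, 8.68 and 9.30 at P1, a 3.58-fold rise of 1.84 (SE 0.25, adjusted p = 0.000569). Slc2a3, the glucose transporter of neurons, rose by 1.09 (SE 0.15, adjusted p = 0.000686), with its second probe at -0.12, against the fall of Slc2a1 in the vessel list. Of 35 lipid and cholesterol genes 7 were higher and 2 lower (median 0.12), 1 and 0 with the block, and Scd2, a fatty acid desaturase, rose by 0.85 (SE 0.10, adjusted p = 0.000312). Without P1 control 1 the number higher was 4.

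Lists tied to activity, hormones and modulators came next. Of 29 immediate early genes 3 were higher (10.3%) and 7 lower (24.1%), near the shares of all features (median -0.17), 1 and 4 with scan day as a block, and without E15 control 1 5 were higher. Ier5 fell by 1.54 (SE 0.20, adjusted p = 0.000477) and Junb by 1.5 (SE 0.40, adjusted p = 0.0164), while Egr1 was at -0.02 (SE 0.16, adjusted p = 0.933). Bdnf, a neurotrophin, ran from 6.4 to 6.77 (median 6.47) at E15 and read 7.00, 7.00, 7.24 and 7.10 at P1, a rise of 0.58 (SE 0.08, adjusted p = 0.00075) at low signal. Among 32 thyroid hormone and glucocorticoid responsive genes 3 were higher (9.38%) and 4 lower (12.5%), against 9.28% and 23.9% of all features. The median was -0.03, and the counts with the block were 2 and 0. When 1 animal was left out 2 to 6 were lower, with 6 without E15 control 4. Of 37 genes of monoamine neurons and hypothalamic peptides 4 were higher (10.8%) and 5 lower (13.5%), with a median of -0.02, and 1 and 0 with the block. Without P1 control 3 the number higher was 2, and without E15 control 4 the number lower was 8. Slc6a3, the dopamine transporter, rose by 0.63 (SE 0.18, adjusted p = 0.0187), a call lost without P1 control 3 or 4, and Pomc, the precursor of stress peptides, fell by 0.83 (SE 0.22, adjusted p = 0.015).

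**Figure D5:**
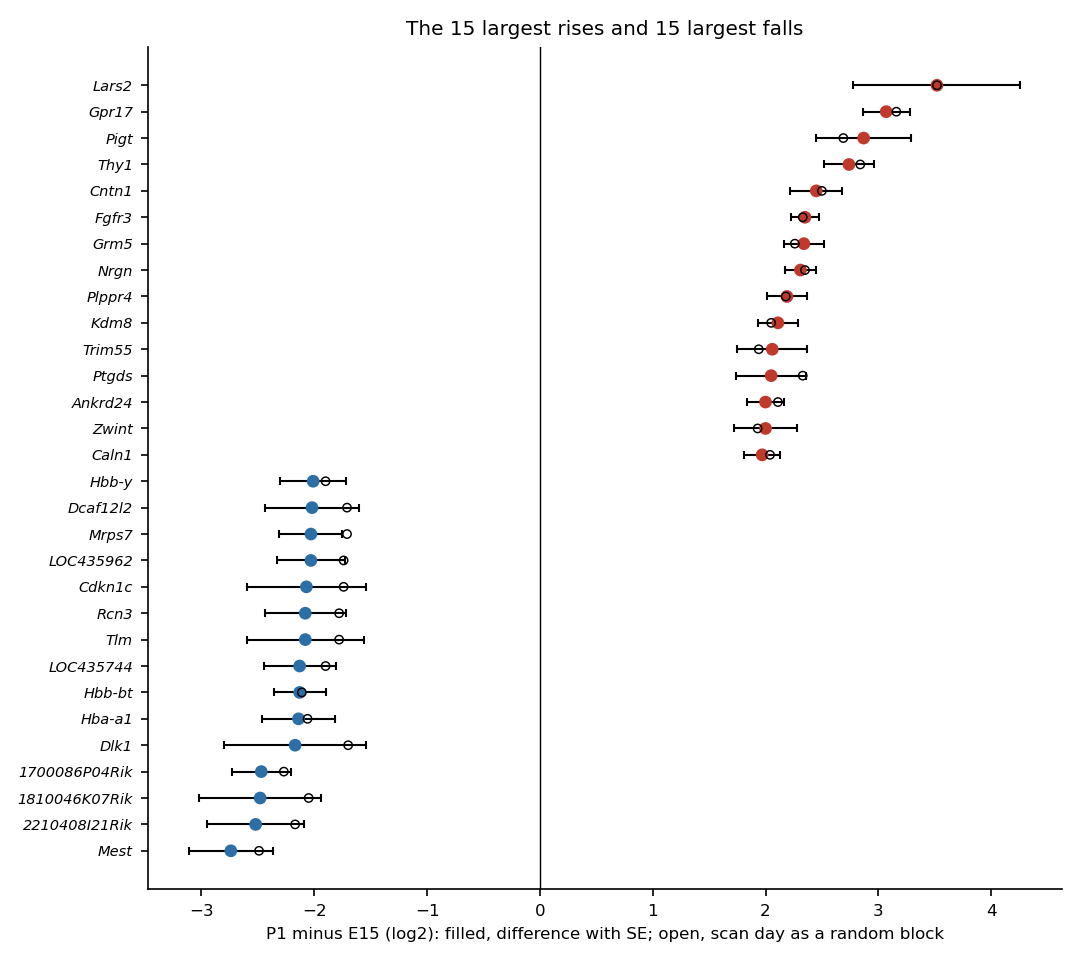
P1 minus E15 difference (x axis, log2) of the 15 largest rises (red) and 15 largest falls (blue) among named genes whose groups did not overlap; bars are the SE and open circles the difference with scan day as a random block. Differences with the block lie between -2.49 (Mest) and 3.52 (Lars2), on the same side of 0 as the main difference for all 30 genes, but 13 of the 30 (11 falls and 2 rises) were not called with the block.

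The 15 largest rises and falls were chosen by a rule, from genes with a value in all 10 animals and no overlap between the groups. With scan day as a block, Pigt (adjusted p = 0.0599) and Trim55 (adjusted p = 0.0912) of the rises were not called. Of the 15 falls only Mest, Hba-a1, Hbb-bt and LOC435962 were called with the block, and the adjusted p of the other 11 ran from 0.0516 for Hbb-y to 0.311 for Dlk1. Beside Gpr17, Thy1, Cntn1, Fgfr3, Grm5, Nrgn and Ptgds, the rises were Lars2 (3.52), Pigt (2.87), Plppr4 (2.19), Kdm8 (2.11), Trim55 (2.06), Ankrd24 (2.00), Zwint (2.00) and Caln1 (1.97). Lars2, a mitochondrial leucyl-tRNA synthetase, spread widely at E15, from 10.41 to 14.09 (median 12.06), and read 16.15, 15.49, 14.98 and 15.70 at P1 (SE 0.74, adjusted p = 0.00497), with 1 of 8 P1 channels saturated. Pigt, which attaches proteins to membrane anchors, had 3 of 8 P1 channels saturated, and its other probe gave -0.21. Plppr4, a phospholipid-binding membrane protein of excitatory synapses, ran from 7.59 to 8.44 (median 8.02) at E15 and lay between 9.94 and 10.51 in the 4 P1 animals (SE 0.18, adjusted p = 5.67e-05), and its 2 probes gave 1.52 and 2.19. Caln1, a calcium-binding protein of neurons, had both probes raised too, by 1.05 and 1.97. Zwint was read by 3 probes that ran from -0.61 to 2.00, and Ankrd24 by 3 from -0.10 to 2.00. Beside Mest, Dlk1, Cdkn1c, Hba-a1, Hbb-bt and Hbb-y, the falls were 2210408I21Rik (-2.52), 1810046K07Rik (-2.48), 1700086P04Rik (-2.47), LOC435744 (-2.13), Rcn3 (-2.08), Tlm (-2.08), LOC435962 (-2.03), Mrps7 (-2.03) and Dcaf12l2 (-2.02). Rcn3, a calcium-binding protein of the secretory pathway, ran from 8.68 to 10.73 (median 9.51) and read 7.46, 7.55, 7.32 and 7.49 (SE 0.36, adjusted p = 0.00195), and both its probes fell. For 2210408I21Rik, Mrps7 and Dcaf12l2 the second probe was at 0.07, -0.04 and 0.05. 1810046K07Rik was well above background on 5 of 8 P1 channels.

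Of 1424 genes on all lists, 1310 were tested, 22 had no probe, 22 were below the signal filter and 70 were left out for outlier spots. Among the latter, 57 had unmarked spots at both ages, with a median difference of 0.59 and 47 above 0, in the direction of all probes left out. These values rest on fewer spots and are given without weight: Apoe, the lipid carrier of astrocytes, was at 2.96, Slc12a5, the neuronal chloride exporter KCC2, at 1.48, Fabp7, a fatty acid binder of radial glia, at 1.56, Nefl, the light neurofilament, at 1.21, S100b at 1.33 and Vim, an intermediate filament of progenitors, at -1.69. Some went against the tested members of their lists. Gins2 of the DNA replication list was at 0.68 and Cdkn2d of the G1 list at 0.95. No tested member of either list was called higher in the main fit. Mgp and Slc13a4 of the meninges list, which mostly fell, were at 2.12 and 1.21. The list counts above do not include these genes.

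The same ages were compared in the knockout channels, which share their arrays, dyes and scan days with the controls. There 1600 features were higher (6.70%) and 3631 lower (15.2%) at P1. Both comparisons called 1296 features higher, 58.5% of the control list and 81.0% of the knockout list, and 3118 lower, 54.6% and 85.9%, and none was called in opposite directions. Without P1 knockout replicate 2, 3 or 4 the number lower in the knockouts was 2315, 2175 or 2268. For Gpr17 the knockout difference was 3.03, for Thy1 2.63, for Mki67 -1.19, for Mcm7 -1.45, for Ndrg2 1.46 and for Mest -2.48, all of them called. Some genes with large rises in the controls were not called in the knockouts: Lars2 was at 2.04 there (adjusted p = 0.217), Pigt at 1.62 (adjusted p = 0.128) and Grn, the gene of progranulin, at 0.13 (adjusted p = 0.905) against 1.54 in the controls. These genes were picked after their values were seen. The knockout animals hold a different genotype by label, and the difference between the 2 comparisons was not tested.

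Agtr2, the gene that defines the series, ran from 6.13 to 9.15 (median 6.53) in the E15 controls and read 6.08, 6.07, 6.18 and 6.24 in the P1 controls. The value of 9.15 came from E15 control 1, and the next highest was 6.98. The difference of -0.78 (SE 0.50, adjusted p = 0.254) was not called, and without that animal it was -0.34 (adjusted p = 0.142). Its signal cleared background well on 13 of the 14 E15 channels and 7 of the 8 at P1. Of the 8 sex-linked genes tested 2 were higher and 2 lower, none of them with scan day as a block. Xist, which is made from the inactive X chromosome, was at 6.96 to 8.08 at E15 and 7.49 to 7.86 at P1. Ddx3y, a Y-linked gene, was at 6.85 to 7.56 and 7.11 to 7.22, and all 10 animals gave signal for both genes.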

How the data were processed

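Control brain RNA of 10 mice was read on 22 two-colour Agilent arrays. The deposited spot signals are linear intensities of each dye, written per the file headers by Agilent Feature Extraction 8.1.1.1 (E15) and 8.5.1.1 (P1). In R 4.3.3 with limma 3.58.1 and statmod 1.5.0 they were corrected with normexp (offset 50), loess within arrays and Aquantile between arrays, and log2 values of the control channel were kept. Outlier spots were dropped, spots of a probe and arrays of an animal were averaged, and the probe with the highest mean signal stood for its gene. A feature needed signal well above background on at least 50% of the control channels of either age. The ages were compared with limma (lmFit, eBayes) over 6 and 4 animals, with Benjamini-Hochberg adjustment at 0.05. On simulated data for this comparison, with 23874 features, 89% of 2-fold changes and 97% of 4-fold changes were recovered. The simulation used independent noise and few changed features, with no difference between scan days. Recovery where age and scan day coincide, as here, was not tested. The number of arrays limits the precision.

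Of 41174 probes 33633 took a symbol, 22161 of them through an accession in the RefSeq table, 5083 through a current symbol, 4419 through a synonym and 1970 from the array file alone. Promoters are those RefSeq lists for build GRCm38.p6. Named genes were the 15 largest rises and falls among called genes with a value in all 10 animals and no overlap between the groups, the key members of each of 43 lists with up to 2 called members of largest change per direction, and Agtr2. Other genes were picked after their values were seen. The members and the lists were chosen with earlier results of these data known. Alternatives covered background correction, scaling, filters, outlier spots, probe choice, dye, scan day, variance model, a replicate block, a 2-fold minimum and leaving out each animal. Figures were drawn with Python 3.11.15 and matplotlib 3.10.9. The series' table of processed values was not used here.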

Additional observations from a re-analysis of the deposited data

Results flagged for a closer look

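Single animals stood apart from the others of their age in 43 of the named genes, by a gap that took most of the range of the group. Chance alone gives such a gap in about 1 in 20 groups, and both age groups of each of 302 named genes were checked. Many gaps of this kind therefore arise by chance, and which of the 43 did so was not tested. E15 control 1 held 15 of these values and P1 control 4 held 7, and no explanation was tested.

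In E15 control 1 the higher values were Agtr2 at 9.15 against 6.13 to 6.98, Cdkn1c at 14.00 against 10.64 to 11.73 and Cox6a2 at 9.23 against 6.75 to 7.59. Further ones were Csf1r at 7.78 against 7.29 to 7.47, Dcn at 10.73 against 8.45 to 9.21 and Igf2 at 13.61 against 10.64 to 11.50. Also higher were Itm2a at 12.79 against 9.25 to 10.50, Krt14 at 9.10 against 6.81 to 7.56 and Krt5 at 11.32 against 7.52 to 8.75. Others were Myh8 at 12.74 against 7.22 to 9.13, Plagl1 at 11.37 against 9.19 to 9.6 and Runx2 at 7.42 against 6.4 to 6.77. The remaining ones were Tnnt3 at 10.67 against 6.47 to 7.66. In E15 control 1 the lower values were Foxa2 at 6.76 against 7.17 to 7.41 and Igfbpl1 at 8.28 against 9.37 to 9.68.

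In E15 control 2 the lower values were Atp5pb at 10.84 against 11.62 to 11.94.

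In E15 control 3 the higher values were Fgfr3 at 7.93 against 7.62 to 7.66 and Mcm2 at 8.88 against 8.23 to 8.46. In E15 control 3 the lower values were Cox6a1 at 13.35 against 13.64 to 13.80.

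In E15 control 4 the higher values were Bdnf at 6.77 against 6.4 to 6.49, Dicer1 at 7.92 against 6.75 to 7.17 and Grm5 at 8.00 against 7.02 to 7.33. Further ones were Tph2 at 6.44 against 5.96 to 6.04. In E15 control 4 the lower values were Srebf1 at 8.70 against 9.02 to 9.15.

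In E15 control 5 the higher values were Pomc at 8.47 against 7.15 to 7.42, Th at 6.98 against 6.43 to 6.62 and Zfy1 at 7.03 against 6.74 to 6.85.

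In P1 control 1 the higher values were Aqp1 at 7.54 against 6.99 to 7.04, Ccnd2 at 10.29 against 9.71 to 9.79 and Efnb1 at 8.29 against 7.75 to 7.80. In P1 control 1 the lower values were Grin1 at 6.50 against 6.59 to 6.6.

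In P1 control 2 the higher values were Kcna2 at 6.42 against 6.14 to 6.18 and Kcnj8 at 7.17 against 6.82 to 6.85. In P1 control 2 the lower values were Scd2 at 11.90 against 12.13 to 12.16 and Zic1 at 10.54 against 11.04 to 11.13.

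In P1 control 3 the higher values were Olig2 at 7.60 against 7.18 to 7.21.

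In P1 control 4 the higher values were 1810046K07Rik at 6.02 against 5.99 to 5.99, Acta1 at 6.67 against 6.39 to 6.44 and Gpr17 at 11.38 against 10.48 to 10.58. Further ones were Zfy2 at 7.31 against 6.58 to 6.68. In P1 control 4 the lower values were Chd3 at 11.37 against 11.97 to 12.08, Gabra2 at 6.79 against 7.11 to 7.16 and Grin2b at 7.04 against 7.53 to 7.59.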

How the results depend on the processing

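The controls gave 2216 features higher and 5710 lower. With outlier spots kept the number higher was 4076, and with only the affected probes kept 3501 higher and 5746 lower, so that 41.2% and 37.9% of calls were rises in place of 28.0%. Controls read in Cy3 alone gave 1228 higher, and in Cy5 alone 2806 lower. Scan day as a random block (consensus correlation 0.384) gave 466 higher and 692 lower, and 40.2% of its calls were rises. A test against a 2-fold minimum gave 10 and 2. The causes were not tested. Processed signals, the 75th percentile, quantiles over both dyes, other signal filters, a mean over probes, a mean of the dyes and another variance model kept both counts within 1.5 times. The 75th percentile moved the median of all features to -0.03. Leaving out 1 animal gave 1664 to 2330 higher and 4332 to 6175 lower. In the knockouts, leaving out 1 replicate, an alternative chosen after seeing the data, gave 1109 to 1717 higher and 2175 to 4273 lower.

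With the replicate number as a block for numbers 1 to 4, 1198 features were higher and 3157 lower. Same-numbered animals of the 2 ages deviated from their group means with correlations of -0.035, 0.218, 0.129 and -0.15, so the numbers did not pair the animals.

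Of 302 named genes 217 were called. Of these, 92 were still called with scan day as a block, 158 with the replicate block, 7 against the 2-fold minimum, 161 in Cy5, 180 in Cy3, 187 with the 75th percentile, 188 to 215 with 1 animal left out, and 199 to 217 under the others. Called genes changed sign in a few settings. Under the 75th percentile Fasn was at -0.20 and Rps25 at -0.19, and the 2 probes of Fasn ran from -0.02 to 0.41 in the main scaling. With outlier spots kept Cadps was at 1.30, Dnmt3a at 0.46, Fkbp5 at 1.13 and Kcnk9 at 1.43, and with the affected probes kept at 1.28, 0.53, 1.04 and 1.33. As means over probes Abat was at -0.02 and Dlgap2 at 0.07, the 2 probes of Dlgap2 standing at -0.60 and 0.75. Changes of sign in values that were not called were not counted as reversals. Of the 25% dimmest features 8.55% were lower and 8.07% higher, against 29.8% and 13.8% of the 25% brightest, and the part of signal near background in this was not tested.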

Other observations

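Gene families taken by the start of their symbols, and chosen after the values were seen, gave further counts. Splicing factors (Snrp, Srsf, Sf3 and Hnrnp genes) had 30 of 47 lower (63.8%) and 3 higher, with a median of -0.58, against 23.9% lower and 9.28% higher among all features. Sf3b4, a subunit of the spliceosome, was lowest at -1.66, and Hnrnpa0 highest at 0.88, a call lost when any of 7 animals was left out. Histones had 17 of 41 lower and 1 higher (median -0.54), with H2aj at -1.66. Zinc finger genes of the Zfp series had 130 of 308 lower (42.2%) and 12 higher (median -0.24). Collagens had 17 of 40 lower and 1 higher (median -0.47), and E15 control 1 was rich in collagen RNA. Proteasome subunits had 14 of 43 lower (32.6%, median -0.25) and mitochondrial ribosomal proteins 22 of 76 (28.9%, median -0.29), with none higher in either family.

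Solute carriers moved both ways, with 49 of 323 higher (15.2%) and 64 lower (19.8%), and a median of -0.06. Subunits of the vesicular proton pump had 5 of 19 higher and 2 lower (median 0.15), led by Atp6v1a at 1.02. Of 3 genes encoded in mitochondrial DNA, mt-Nd4 rose by 1.49 and mt-Cytb by 0.90, and mt-Co2 was at 0.38. Psap, the precursor of lysosomal activators, and Grn, progranulin, each rose by 1.54, although the probes of Grn ran from -0.02 to 1.54. Malat1, an abundant nuclear noncoding RNA, rose by 1.37. Olfactory receptors, which are not brain genes as a class, had 146 of 784 lower (18.6%) and 22 higher, with a median of -0.09, close to the -0.10 of all features. The largest difference of any feature, 3.91, belonged to probe A_52_P130982, which has no symbol here, with 7.27 to 7.97 at E15 and 11.36, 11.62, 11.41 and 11.53 at P1.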
